A study of Rattus norvegicus with 40 samples.

Results

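The CD3 chains are the signaling subunits of the T cell receptor, and the members described here are the genes Cd3e, Cd3d, Cd3g and Cd247. They were found by symbol among 31677 gene models, of which 14949 carry a symbol, and each of the 4 symbols matched exactly 1 gene model in each of the 15 deposited tables. The samples were kidney T cells and circulating T cells of rats (Rattus norvegicus) of the Dahl salt-sensitive (SS) strain, which as background is an inbred model of salt-dependent hypertension. Per tissue there were 5 groups, which were SS/CRL rats on HS and on LS chow and SS/MCW rats on HS and on LS chow, all 10 weeks old, and SS/MCW rats on LS chow at 7 weeks. HS stands for 3 weeks of high-salt chow and LS for low-salt chow. As background, SS/CRL and SS/MCW are colonies of the strain bred at a commercial supplier and at a medical college. Each group was sequenced as 4 libraries, and each library pooled 3 rats, so no value belongs to 1 animal. The files hold 1 FPKM (fragments scaled by transcript length and by all mapped fragments) per group and table. No spread among the 4 libraries can therefore be printed, and the depth is unknown. How the T cells were isolated is not given in the sources used here. The deposited p-values come from Cuffdiff on libraries of pooled rats, and how well they measure the spread between pools cannot be checked here.

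The antigen-binding alpha and beta chains of the receptor have almost no cytoplasmic part of their own. They travel to the surface and signal only together with CD3 epsilon (Cd3e), CD3 delta (Cd3d), CD3 gamma (Cd3g) and the zeta chain (Cd247). Epsilon pairs with delta and with gamma, zeta pairs with itself, and all of them carry tyrosine-based activation motifs that the kinase LCK phosphorylates and the kinase ZAP70 then binds. Zeta is also used by natural killer cell receptors, whereas the other chains are standard markers of T cells. In the kidney, T cells are a small population among tubule, vascular and myeloid cells.

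The 3 CD3 genes lie side by side in the authors' gene models on build rn5. Cd3g spans chromosome 8 from 47892319 to 47898776, Cd3d from 47900376 to 47905113 and Cd3e from 47915615 to 47926788, so the cluster covers 34470 bases. Between Cd3g and Cd3d lie 1599 bases, and between Cd3d and Cd3e 10501 bases. Cd247 lies on chromosome 13 from 88876069 to 88950999. The gene models without a symbol next to the chains did not exceed 3.74 FPKM in any group, and Ube4a, a ubiquitin ligase gene beside Cd3g, lay between 8.68 and 19.4 FPKM.

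The 250 bases before each start in RefSeq (build GRCr8) are shown because Cd3g and Cd3d are read in opposite directions from neighboring starts and all chains were measured together. Cd3e is read on the minus strand (chromosome 8 from 54211771 to 54212020), Cd3d on the plus strand (54185269 to 54185518), Cd3g on the minus strand (54183919 to 54184168) and Cd247 on the plus strand (chromosome 13 from 80576019 to 80576268). Each is written 5′ to 3′ in the gene's direction, and capitals mark any match on either strand to 4 motifs that were searched. These were TATAAA (the TATA box), GGAAGT (a core bound by ETS factors), CACCTG (an E-box) and TGTGGT (a core bound by RUNX factors).
Cd3e: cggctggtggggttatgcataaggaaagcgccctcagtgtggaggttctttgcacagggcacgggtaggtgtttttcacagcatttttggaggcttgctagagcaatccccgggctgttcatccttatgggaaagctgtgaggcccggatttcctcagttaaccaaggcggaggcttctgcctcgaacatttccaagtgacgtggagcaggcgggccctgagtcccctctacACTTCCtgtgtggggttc
Cd3d: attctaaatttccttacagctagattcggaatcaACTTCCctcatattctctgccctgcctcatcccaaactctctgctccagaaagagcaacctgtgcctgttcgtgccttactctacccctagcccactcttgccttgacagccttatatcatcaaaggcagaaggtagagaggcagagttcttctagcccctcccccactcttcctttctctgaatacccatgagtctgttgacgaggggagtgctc
Cd3g: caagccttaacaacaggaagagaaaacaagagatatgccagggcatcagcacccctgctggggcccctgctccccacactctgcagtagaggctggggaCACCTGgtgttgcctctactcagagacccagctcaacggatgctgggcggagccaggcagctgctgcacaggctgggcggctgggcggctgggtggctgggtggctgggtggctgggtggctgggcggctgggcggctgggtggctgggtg
Cd247: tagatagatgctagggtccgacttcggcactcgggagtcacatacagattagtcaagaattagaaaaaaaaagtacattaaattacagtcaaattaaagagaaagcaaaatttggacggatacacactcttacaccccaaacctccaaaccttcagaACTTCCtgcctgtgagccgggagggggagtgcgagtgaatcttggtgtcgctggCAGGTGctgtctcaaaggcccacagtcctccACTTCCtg
No match to TATAAA was found in the 4 windows, a motif that 12.9% of 33469 rat promoters of this length hold, and none to TGTGGT, which 14.5% hold. GGAAGT matched on the opposite strand (capital ACTTCC) once in Cd3e, its first printed base at position -18 counted back from the start, once in Cd3d at -216 and in Cd247 at -93 and -8. Of all promoters 19.2% hold it. CACCTG, held by 15.9% of promoters, matched in Cd3g at -151 and on the opposite strand (capital CAGGTG) in Cd247 at -39. The windows of Cd3g and Cd3d shared no matched motif. The GC content was 66.4% for Cd3g, 56% for Cd3e, 49.6% for Cd3d and 46.8% for Cd247, against a median of 51.2% over all promoters. The files hold no binding data, so these matches describe letters only.

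In kidney T cells the chains stood far below their level in circulating T cells, and highest in SS/MCW rats on HS. Levels here are the median over the tables that list a group. The tables were normalized separately, and the level of 1 chain in 1 group differed between tables by 1.10 to 1.16-fold. Cd3e, the chain shared by both CD3 pairs, had 22.6 FPKM in SS/CRL rats on HS and 26.8 FPKM in SS/CRL rats on LS in kidney. It had 110.3 FPKM in SS/MCW rats on HS, 41.6 FPKM in SS/MCW rats on LS at 10 weeks and 28.2 FPKM at 7 weeks. In circulating cells Cd3e had 739 FPKM, 674 FPKM, 781 FPKM, 702 FPKM and 830.0 FPKM in the same order of groups. The kidney and circulating values of Cd3e do not overlap, and how many other gene models part in the same way was not computed. The kidney groups spread 4.88-fold while the circulating groups spread 1.23-fold.

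Cd3d, which pairs with epsilon, had 25.1 FPKM in SS/CRL rats on HS and 33.0 FPKM in SS/CRL rats on LS in kidney. It had 136 FPKM in SS/MCW rats on HS, 113 FPKM in SS/MCW rats on LS at 10 weeks and 36.4 FPKM at 7 weeks. In circulating cells it had 703 FPKM, 629 FPKM, 773 FPKM, 648 FPKM and 962 FPKM in that order. Unlike that of Cd3e, the kidney level of Cd3d in SS/MCW rats on LS at 10 weeks thus lay close to that on HS. The circulating groups had the same order for both chains, highest in SS/MCW rats at 7 weeks.

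Cd3g, which pairs with epsilon as well, was the most abundant chain per length in every circulating group. It had 39.8 FPKM in SS/CRL rats on HS, 35.0 FPKM in SS/CRL rats on LS, 183 FPKM in SS/MCW rats on HS, 99.4 FPKM in SS/MCW rats on LS at 10 weeks and 39.9 FPKM at 7 weeks in kidney. In circulating cells it had 1206 FPKM, 1004 FPKM, 1339 FPKM, 1043 FPKM and 1384 FPKM. In kidney Cd3g was the highest chain in each group but SS/MCW on LS at 10 weeks, where Cd3d stood above it.

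Cd247, the zeta chain, was the lowest of the 4 in all 10 groups. In kidney it had 8.92 FPKM in SS/CRL rats on HS, 8.29 FPKM in SS/CRL rats on LS, 27.6 FPKM in SS/MCW rats on HS, 9.09 FPKM in SS/MCW rats on LS at 10 weeks and 7.04 FPKM at 7 weeks. In circulating cells it had 272 FPKM, 250 FPKM, 279 FPKM, 246 FPKM and 278 FPKM. Its circulating groups spread 1.14-fold, which is within the difference between tables. Its kidney level in SS/MCW rats at 7 weeks reached at most 7.44 FPKM in a table, and the other kidney groups had at least 7.50 FPKM. Both SS/CRL groups and SS/MCW on LS at 10 weeks overlapped over tables. The range over tables reflects normalization of the same libraries, so it settles no order of groups. Cuffdiff did not call Cd247 in kidney at 10 against 7 weeks (q = 0.930 in the authors' deposited table).

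**Figure D1:**
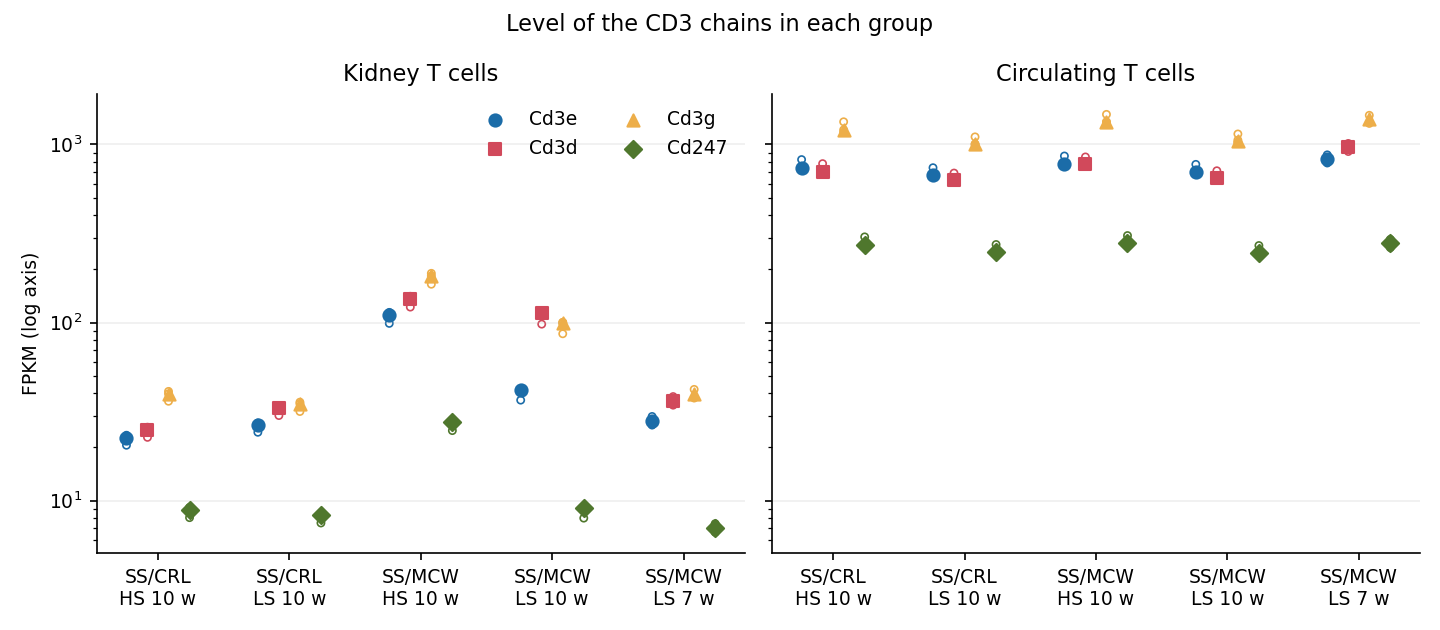
Level of each CD3 chain in kidney T cells (left) and circulating T cells (right) by group, in FPKM on a log axis. Filled marks are the median over tables and open circles the value in each table. Kidney levels run between 7.04 and 183 FPKM and circulating levels between 246 and 1384 FPKM, and in kidney SS/MCW rats on LS at 10 weeks Cd3d and Cd3g stand far above Cd3e.

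Among the 14949 gene models with a symbol, the chains were near the top in circulating cells and in the middle or upper part in kidney. Cd3e, Cd3d and Cd3g ranked between 95 and 125 by FPKM in circulating cells and Cd247 between 263 and 301. In kidney Cd3e ranked 927 in SS/MCW rats on HS and 4405 in SS/CRL rats on HS, its best and worst places there. Cd247 ranked between 3847 and 8083. In kidney SS/MCW rats on LS at 10 weeks Cd3d ranked 977 and Cd3e 2648, although their circulating ranks in those rats were 125 and 116.

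All 4 chains were called lower in kidney than in circulating cells in all 5 groups of rats, at q under 0.05 by Cuffdiff in the authors' deposited table. Among SS/CRL rats, lower calls made up 20.3% of tested gene models for HS and 22% for LS. Among SS/MCW rats the share was 18.4% for HS, 17% for LS at 10 weeks and 23.9% at 7 weeks. The log2 fold changes of kidney over circulating lay between -5.46 for Cd247 in SS/MCW rats at 7 weeks and -2.80 for Cd3d in SS/MCW rats on HS. Gene models with at least 5 FPKM in both tissues had medians between -0.23 and -0.15, so the deficit of the chains relative to these was slightly smaller. Gene models that reached 1 FPKM in a group and were above 0 in both had medians between 0.20 and 0.46. Relative to those the deficit of the chains was slightly larger. In bulk RNA, fewer T cells in a preparation and less RNA of a gene per T cell cannot be told apart.

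Expressed as a percent of the circulating level in the same table, the chains kept close together in SS/CRL rats. In SS/CRL rats on HS the kidney level was 2.49% for Cd3e, 2.91% for Cd3d, 2.70% for Cd3g and 2.66% for Cd247. In SS/CRL rats on LS it was 3.28%, 4.36%, 2.88% and 2.74% in that order of chains. In SS/MCW rats on HS it was 11.5%, 14.4%, 11.1% and 8.04%. In SS/MCW rats on LS at 7 weeks it was 3.04%, 3.40%, 2.59% and 2.27%. The highest chain stood 1.17-fold to 1.79-fold above the lowest in these 4 groups.

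In SS/MCW rats on LS at 10 weeks the chains parted. Cd3d stood at 13.8% of its circulating level, Cd3g at 7.56%, Cd3e at 4.75% and Cd247 at 2.95%, a 4.67-fold span. Cd3d was thus near its place on HS, and Cd247 near its place in SS/CRL rats. Cd3d had the highest percent of the chains in all 5 groups of rats, and Cd247 the lowest in each but SS/CRL on HS, where Cd3e was lowest. The order in SS/MCW rats on LS at 10 weeks also follows the length of the gene models, with 4738 bases for Cd3d, 6458 for Cd3g, 11174 for Cd3e and 74931 for Cd247. The part of gene length in it was not tested.

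**Figure D2:**
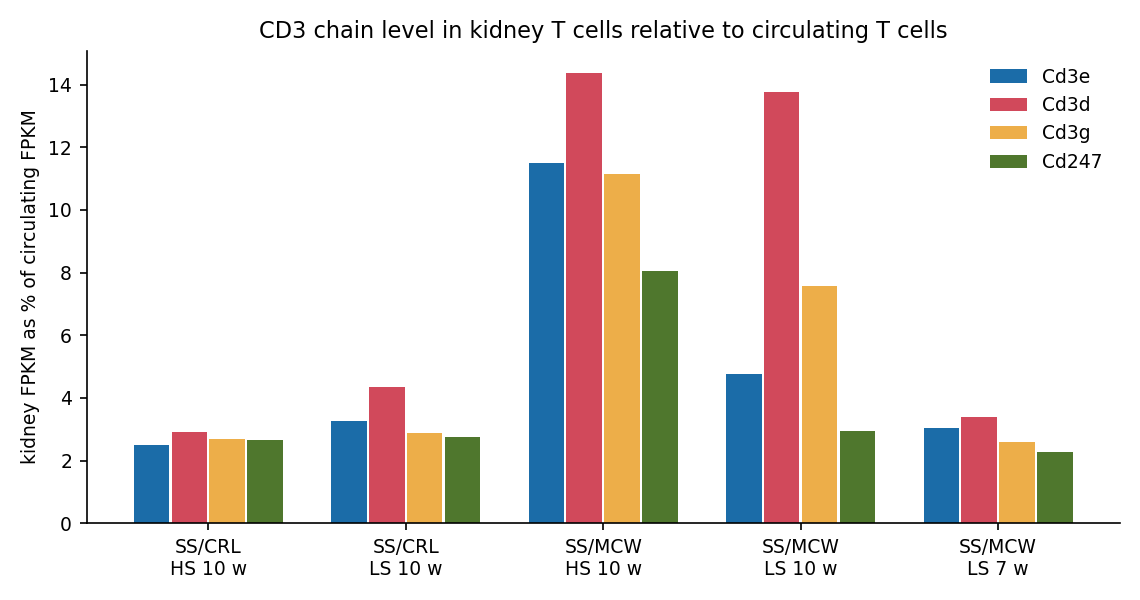
Kidney FPKM of each chain as a percent of its circulating FPKM, by group of rats, from the table that compares both tissues. Bars of a group stand close together except in SS/MCW rats on LS at 10 weeks, where they run between 2.95% and 13.8%.

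Ratios between chains show the same split within the kidney values. Cd3d over Cd3e was 2.71 in kidney SS/MCW rats on LS at 10 weeks. In the other kidney groups it was 1.11 (SS/CRL, HS), 1.23 (SS/CRL, LS), 1.23 (SS/MCW, HS) and 1.29 (SS/MCW at 7 weeks), and circulating groups lay between 0.923 and 1.16. Cd3g over Cd3e was 2.39 in kidney SS/MCW rats on LS at 10 weeks, between 1.31 and 1.76 in the other kidney groups and between 1.48 and 1.71 in circulating groups. Cd247 over Cd3e was 0.218 in kidney SS/MCW rats on LS at 10 weeks, the lowest of all groups. Among the other kidney groups it reached 0.394, in SS/CRL rats given HS, and it lay between 0.335 and 0.370 in circulating groups. FPKM is per length, so these ratios compare levels per length. With 1 value per group their difference between groups has no test.

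**Figure D3:**
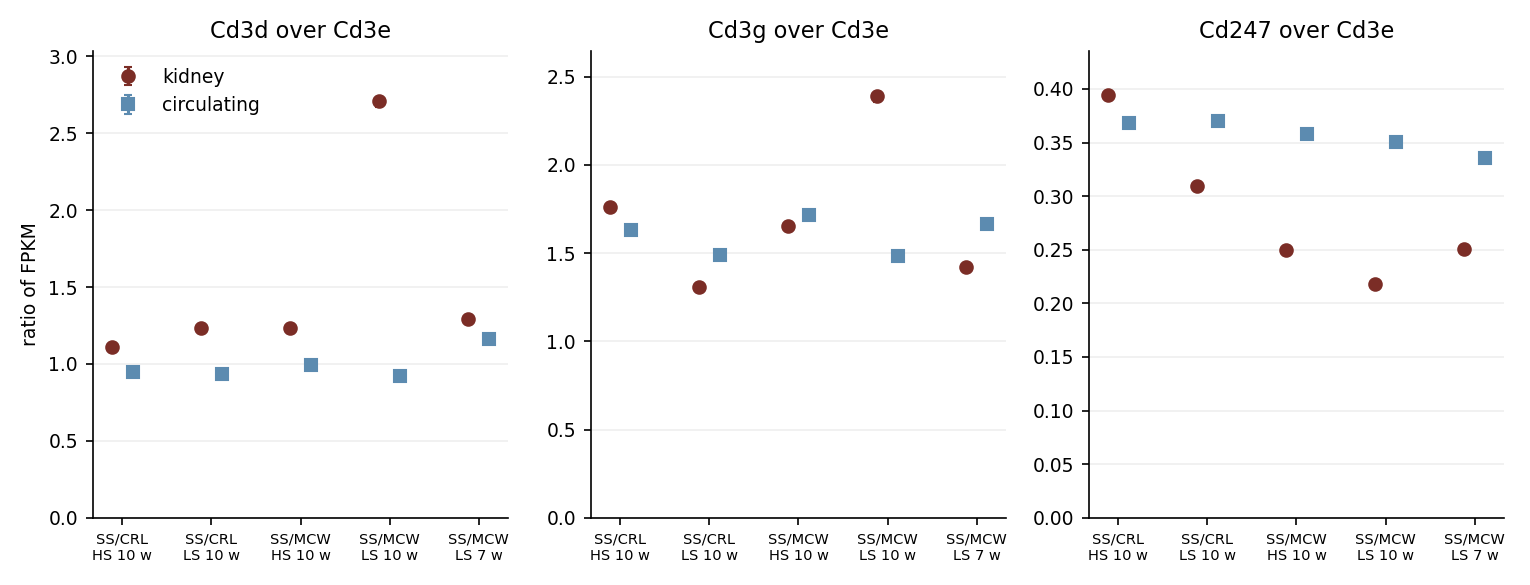
Ratio of the FPKM of Cd3d, Cd3g and Cd247 to that of Cd3e in kidney and circulating T cells by group. Points are medians over tables and bars the range over tables, mostly smaller than the point. The kidney group SS/MCW on LS at 10 weeks stands at 2.71 for Cd3d and 2.39 for Cd3g, above every other group.

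Relative to the receptor's own chains, Cd3e, Cd3g and Cd247 were lower in all kidney groups than in any circulating group, and Cd3d was not. This comparison was chosen after the data were seen. How many other gene models part between the tissues in the same way was not computed, so the ratios are descriptions. Cd3e over Trac, the alpha chain constant gene, was 0.266 to 0.394 in kidney groups and 0.703 to 0.789 in circulating groups. Cd3g over Trac was 0.377 to 0.706 in kidney and 1.15 to 1.21 in circulating groups, and Cd247 over Trac 0.0645 to 0.123 against 0.239 to 0.292. These ranges do not overlap. Cd3d over Trac was 0.801 in kidney SS/MCW rats on LS at 10 weeks, inside the circulating range of 0.673 to 0.828, and 0.344 to 0.485 in the other kidney groups. Over Tcrb, the beta chain gene (TCRB in the files), Cd3e was 0.181 to 0.246 in kidney and 0.300 to 0.347 in circulating groups. Cd3g over Tcrb was 0.266 to 0.432 in kidney and 0.499 to 0.521 in circulating groups, and Cd247 over Tcrb 0.0395 to 0.0864 against 0.104 to 0.128. Cd3d over Tcrb was 0.490 in kidney SS/MCW rats on LS at 10 weeks, above the circulating range of 0.297 to 0.361, and 0.319 at 7 weeks, inside it, while the other kidney groups had 0.243 to 0.287. Trac itself stood at 5.63% to 20.6% of its circulating level in kidney and TCRB at 3.63% to 14.9%.

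In kidney cells on HS, SS/CRL against SS/MCW asked how the colonies differ under a salt load, and all 4 chains fell in SS/CRL rats. Cd3e had 23.3 FPKM in SS/CRL rats and 114 FPKM in SS/MCW rats, a log2 fold change of -2.29. Cd3d had 25.9 FPKM in SS/CRL and 140.4 FPKM in SS/MCW rats (log2 fold change -2.44), Cd3g 41.1 and 189 FPKM (-2.20), and Cd247 9.17 and 28.5 FPKM (-1.64). Each stood at q = 0.00149 by Cuffdiff in the authors' deposited table, with the smallest p that Cuffdiff gave there, 5e-05. Lower calls made up 2.97% of the gene models tested. Standard errors, taken as the log2 fold change over the deposited test statistic, lay between 0.59 and 0.65. A normal p of that statistic is less extreme than the deposited p, and adjusted over all gene models it came to 0.101 for Cd3e, 0.0876 for Cd3d, 0.103 for Cd3g and 0.938 for Cd247.

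Many, not all, other genes of the receptor pathway fell in the same comparison. The lists were chosen with results of these data known, so their counts are descriptions. Trac and TCRB fell in the authors' deposited table, with log2 fold changes of -1.96 and -2.20. By the q of the authors' deposited table, 21 of 34 proximal signaling genes were called lower and none higher, with a median of -1.38 on the log2 scale against 0.12 over all gene models that reached 1 FPKM in a group and were above 0 in both. Lck, the kinase of the motifs, had 22.7 FPKM in SS/CRL rats and 81.4 FPKM in SS/MCW rats, and Zap70 14.4 and 39.7 FPKM. Lat, the adaptor that ZAP70 phosphorylates, had 58.9 and 144 FPKM, and the coreceptor Cd8a 41.5 and 142 FPKM, all of them called lower. In the authors' deposited table, 7 of 11 surface and costimulatory genes were called lower (median -2.05), among them Cd2, an adhesion receptor, with 18.6 and 77.0 FPKM. The same table called 10 of 14 T cell transcription factors lower (median -1.53). With a normal p of the test statistic, a setting added for the lists after the data were seen, none of the receptor constant, proximal signaling and transcription factor genes stayed called, 2 surface genes did, and 22 gene models in all were called. The calls of the lists thus rest on the deposited p, as those of the chains do.

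Macrophage and natural killer cell markers fell as well. Of 4 tested B cell genes 3 were lower and 1 was higher, with a median of -1.47 on the log2 scale. None of these 4 was called by Cuffdiff in the authors' deposited table, and none had an unadjusted p under 0.05. In the authors' deposited table, 8 of 11 tested macrophage genes were called lower in SS/CRL rats on HS (median -2.22 on the log2 scale), and of 12 natural killer cell genes 8, with a median of -2.02. With a normal p of the test statistic 2 macrophage genes and 1 natural killer cell gene were called. Fcer1g, a motif-bearing adaptor of Fc receptors in myeloid cells, had 57.3 FPKM in SS/CRL rats and 296 FPKM in SS/MCW rats. The summed level of all 12 macrophage genes in kidney was 185 FPKM in SS/CRL rats on HS, 177 FPKM in SS/CRL rats on LS, 986 FPKM in SS/MCW rats on HS, 434 FPKM in SS/MCW rats on LS at 10 weeks and 195 FPKM at 7 weeks. The summed CD3 chains followed the same order but for SS/CRL rats, with 96.5, 103, 456, 263 and 112 FPKM. The complement genes C1qa, C1qb and C1qc had between 5.26 and 46.3 FPKM in kidney, and 2 or 3 members of the list were at 0 in each circulating group. The sum of 13 tubule genes was 9367, 14114, 11048, 11835 and 18833 FPKM in the same order of kidney groups and between 4.60 and 7.79 FPKM in circulating cells. The kidney libraries thus held abundant RNA of tubule and myeloid cells, whose part in the chain values was not tested.

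In kidney cells on LS, SS/CRL against SS/MCW, all 4 chains had lower values in SS/CRL rats, and only Cd3d was called. Cd3d fell in SS/CRL rats, with 33.0 FPKM against 112 FPKM in SS/MCW rats and a log2 fold change of -1.76 (q = 0.0159 by Cuffdiff in the authors' deposited table). Cd3g had 35.0 FPKM in SS/CRL rats and 98.7 FPKM in SS/MCW rats, a log2 fold change of -1.49 that did not pass (q = 0.0565 by Cuffdiff in the authors' deposited table). Cd3e had 26.8 and 41.2 FPKM (-0.62) and Cd247 8.29 and 9.00 FPKM (-0.12). Their q by Cuffdiff, from the authors' deposited table, were 0.627 and 0.949. Standard errors lay between 0.73 for Cd3e and 0.97 for Cd3d, and the chains were not tested against each other. Lower calls made up 0.444% of gene models. The call of Cd3d was lost at q under 0.01 and with a normal p of the test statistic.

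The proximal signaling genes had no call in that comparison among 32 tested by Cuffdiff in the authors' deposited table. There 2 of them had an unadjusted p under 0.05, as had 1743 of 18032 gene models tested. Their median log2 fold change was -0.12 against -0.01 over all, and that of the 4 chains was -1.06. Of 10 tested macrophage genes C1qb and Gpnmb were called lower in the authors' deposited table, with a list median of -1.07. None of 9 tested surface and costimulatory genes was called there, with a median of -0.75. Lck had 33.5 FPKM in SS/CRL rats and 35.2 FPKM in SS/MCW rats, Zap70 22.4 and 20.1 FPKM, and Ptprc, the leukocyte phosphatase CD45, 12.9 and 12.2 FPKM. Trac had 81.9 FPKM in SS/CRL and 139.5 FPKM in SS/MCW rats and Cd8a 48.4 and 97.1 FPKM, neither called. Among the other receptor adaptors, Fcer1g fell (54.3 and 129 FPKM, q = 0.0461 in the authors' deposited table), as did Tyrobp, the DAP12 adaptor of natural killer and myeloid receptors (48.4 and 159 FPKM, q = 0.00920 in that table). Hcst, the DAP10 adaptor, had 34.9 FPKM in SS/CRL rats and 103 FPKM in SS/MCW rats and did not pass (q = 0.162 in the authors' deposited table). With a normal p of the test statistic none of these adaptors was called.

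In kidney cells of SS/MCW rats on LS, 10 against 7 weeks, all 4 chains had higher values at 10 weeks, with the largest fold changes for Cd3d and Cd3g. Cd3d rose, with 114 FPKM at 10 weeks and 38.4 FPKM at 7 weeks and a log2 fold change of 1.56 (q = 0.0304 by Cuffdiff in the authors' deposited table). Cd3g had 100.2 FPKM at 10 weeks and 42.2 FPKM at 7 weeks (1.25, q = 0.133 in the authors' deposited table), Cd3e 42.1 and 29.7 FPKM (0.50, q = 0.832) and Cd247 9.18 and 7.44 FPKM (0.30, q = 0.930). The call of Cd3d was lost at q under 0.01 and with a normal p of the test statistic. Standard errors lay between 0.69 for Cd3e and 0.91 for Cd3d, and here too the chains were not tested against each other. Higher calls made up 0.774% of gene models. Hcst (105 and 28.0 FPKM) and Tyrobp (162 and 56.0 FPKM) rose too by the deposited q but not with a normal p of the test statistic. No proximal signaling gene was called among 33 tested by Cuffdiff in the authors' deposited table. There 2 of them had an unadjusted p under 0.05, as had 1500 of 18869 gene models tested. Lat had 106 FPKM at 10 weeks and 45.0 FPKM at 7 weeks and did not pass (q = 0.189 in the authors' deposited table). Both comparisons use the kidney group SS/MCW on LS at 10 weeks, so they are not separate evidence of the split between chains.

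High salt against low salt in kidney cells of SS/MCW rats gave higher values of all 4 chains on HS, none of which passed over all genes. Cd3e had 110.3 FPKM on HS and 42.1 FPKM on LS, a log2 fold change of 1.39 (q = 0.0527 by Cuffdiff in the authors' deposited table), and Cd247 had 27.6 and 9.19 FPKM (1.58, q = 0.173 in that table). Cd3g had 183 FPKM on HS and 100.2 FPKM on LS (0.87), and Cd3d 136 and 114 FPKM (0.26), both at q = 1.000 in the authors' deposited table. Unadjusted, 3 of the 4 chains had a Cuffdiff p under 0.05 in the authors' deposited table, as had 828 of 19385 gene models tested there. Cd3d was the exception at a Cuffdiff p of 0.543. A normal p of the test statistic called none of the chains. Calls in either direction made up 0.433% of gene models. By the size of the log2 fold change without its sign, the order of the chains is the reverse of that in 2 other comparisons. These are the comparison of colonies on LS and that by age, which share the LS group at 10 weeks.

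Around the chains, 4 of 34 proximal signaling genes were called higher on HS in SS/MCW kidney cells in the authors' deposited table. Ptprc had 48.8 FPKM on HS and 12.4 FPKM on LS, the coreceptor Cd4 21.2 and 7.44 FPKM and the adaptor Lcp2 24.3 and 7.50 FPKM, and Fyb, an adaptor, was called too. The median log2 fold change of that list was 0.87 against -0.06 over all gene models. In the same table Cd27 and Ctla4 rose among 10 surface genes, with a list median of 1.27, and Satb1 among 14 transcription factors. Of 12 natural killer cell genes Klrb1c and Klrk1 rose, with a median of 1.80, and of 11 macrophage genes Gpnmb rose, with a median of 1.30, by the q in the authors' deposited table. None of these list members stayed called at q under 0.01 or with a normal p of the test statistic.

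In SS/CRL kidney cells HS against LS, no chain was called, and the values lay on both sides of 0. Cd3e had 22.6 FPKM on HS and 27.3 FPKM on LS, a log2 fold change of -0.27 ± 0.57 (SE). Cd3d had 25.1 and 33.7 FPKM (-0.42 ± 0.66), Cd3g 39.8 and 35.8 FPKM (0.16 ± 0.59) and Cd247 8.92 and 8.47 FPKM (0.08 ± 0.68). The smallest q was 0.569, for Cd3d, in the authors' deposited table, and no chain had an unadjusted p under 0.05, in a comparison where 5.51% of gene models were called. Lat alone among 30 proximal signaling genes was called in the authors' deposited table, lower with 57.3 FPKM on HS and 100.2 FPKM on LS, and not with a normal p of the test statistic. Of these 30 genes 22 were lower and 8 higher on HS. An unadjusted Cuffdiff p under 0.05 was found for 7 of them, and for 3020 of 20501 gene models tested.

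**Figure D4:**
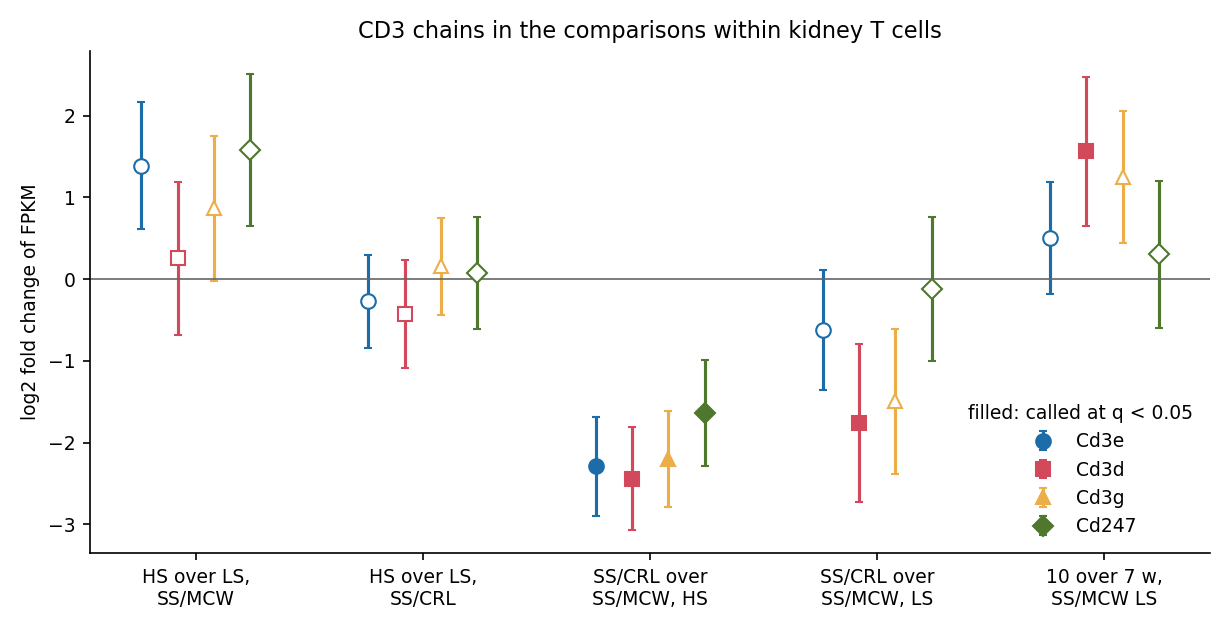
Log2 fold change of FPKM for each chain in the 5 comparisons within kidney T cells, with 1 standard error (log2 fold change over the deposited test statistic) and filled marks where the authors' q was under 0.05. All 4 chains are filled for SS/CRL over SS/MCW on HS, between -2.44 and -1.64, and Cd3d alone for SS/CRL over SS/MCW on LS and for 10 over 7 weeks.

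In circulating cells no chain was called in any of the 5 comparisons by Cuffdiff in the authors' deposited table, and 1 of 20 chain values had an unadjusted p under 0.05. Of gene models tested, 2225 of 17103 had such a p for 10 against 7 weeks. In the other comparisons the share ran from 368 of 16995 to 1576 of 17169. A normal p of the test statistic called no chain either. The value with a p under 0.05 was Cd3d at 10 against 7 weeks in SS/MCW rats on LS, with 638 FPKM at 10 weeks and 912 FPKM at 7 weeks (log2 fold change -0.52, p = 0.00265 and q = 0.0878 by Cuffdiff in the authors' deposited table). Cd3g had 1026 FPKM at 10 weeks and 1312 FPKM at 7 weeks (-0.35), Cd3e 691 and 786 FPKM (-0.19) and Cd247 242 and 264 FPKM (-0.12). The circulating direction for Cd3d, which was not called, is thus opposite to that in kidney. HS over LS gave log2 fold changes between 0.16 and 0.37 in SS/MCW rats and between 0.12 and 0.26 in SS/CRL rats. SS/CRL over SS/MCW gave values between -0.08 and -0.0015 on LS and between -0.19 and -0.08 on HS. Gene models called made up 0.107% for HS against LS in SS/MCW rats and 0.67% in SS/CRL rats. They made up 0.541% for SS/CRL against SS/MCW on LS, 0.241% on HS and 1.94% for 10 against 7 weeks.

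Differences between effects were tested with a z from 2 log2 fold changes and their standard errors, with Benjamini-Hochberg adjustment over all gene models. None of the 28 chain values passed. For the effect of tissue on HS, SS/CRL minus SS/MCW, Cd3e differed by -2.20 (95% interval -3.58 to -0.83). Cd3d differed by -2.30 (-3.69 to -0.92), Cd3g by -2.04 (-3.45 to -0.64) and Cd247 by -1.60 (-2.96 to -0.23). After adjustment over all gene models these stood at 0.509 for Cd3e, 0.386 for Cd3d, 0.747 for Cd3g and 1.000 for Cd247, so intervals of single chains that leave out 0 did not carry over to the adjusted test. For the effect of tissue in SS/MCW rats on LS, 10 minus 7 weeks, Cd3d differed by 2.02 (0.16 to 3.88; 1.000 after adjustment) and Cd3e by 0.64 (-0.91 to 2.19). For the kidney salt effect, SS/MCW minus SS/CRL, the intervals ran from -0.22 to 3.55 for Cd3e, from -1.56 to 2.93 for Cd3d, from -1.37 to 2.80 for Cd3g and from -0.75 to 3.77 for Cd247. Adjusted calls made up 0% of gene models for the kidney and 0.0367% for the circulating salt effect. For the tissue effect, HS minus LS gave 0.0121% in SS/MCW and 0.0125% in SS/CRL rats, SS/CRL minus SS/MCW gave 0.0193% on LS and 0.0358% on HS, and 10 minus 7 weeks gave 0.0122%. Between 0.165% and 1.95% of gene models had an unadjusted p under 0.05 in these tests, fewer than unchanged gene models would give if the standard errors were right.

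Across groups each chain had other genes that ran closely parallel, given as descriptions over 10 groups that share tissue as their main contrast. Likeness is Pearson's r of log2(FPKM + 1) among 10616 gene models with a symbol and at least 5 FPKM in their highest group. The nearest to Cd3e were Epsti1, Grap and Gimap7 (r of at least 0.998), to Cd3d Cd8a, Rgs10 and the model Gpsm3,Notch4 (at least 0.996), to Cd3g Cmtm3, Sit1 and TCRB (at least 0.997) and to Cd247 RAB37, Rab27a and Prkch (at least 0.998). The chains were not each other's nearest genes. By this r the other chains ranked between 15 (Cd3g for Cd3d, r = 0.993) and 1337 (Cd3d for Cd247, r = 0.966), so a high r was common. Cd8a, nearest to Cd3d, had 40.3, 48.4, 138, 97.6 and 42.4 FPKM in the kidney groups in the order used above.

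The group in which the chains parted was also high in ribosomal protein and red cell transcripts, each of them high in another kidney group as well. Summed over 101 ribosomal protein gene models, a list added after the data were seen that includes models listed at 0 in some groups, kidney levels were 91185 FPKM (SS/CRL, HS), 89247 FPKM (SS/CRL, LS), 137739 FPKM (SS/MCW, HS), 140665 FPKM (SS/MCW, LS at 10 weeks) and 86558 FPKM (SS/MCW at 7 weeks). The summed red cell genes, mostly hemoglobin, were 685, 3054, 458, 4594 and 660 FPKM. Ribosomal protein sums were thus high in both SS/MCW groups at 10 weeks, and red cell sums in both LS groups at 10 weeks. SS/MCW on LS at 10 weeks was the kidney group that was high in both. In circulating cells the ribosomal protein sum was highest in SS/MCW rats at 7 weeks, with 430080 FPKM against 301768 to 385555 FPKM in the others, where Cd3e, Cd3d and Cd3g were highest too. The part of these differences in the level of Cd3d and Cd3g was not tested.

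**Figure D5:**
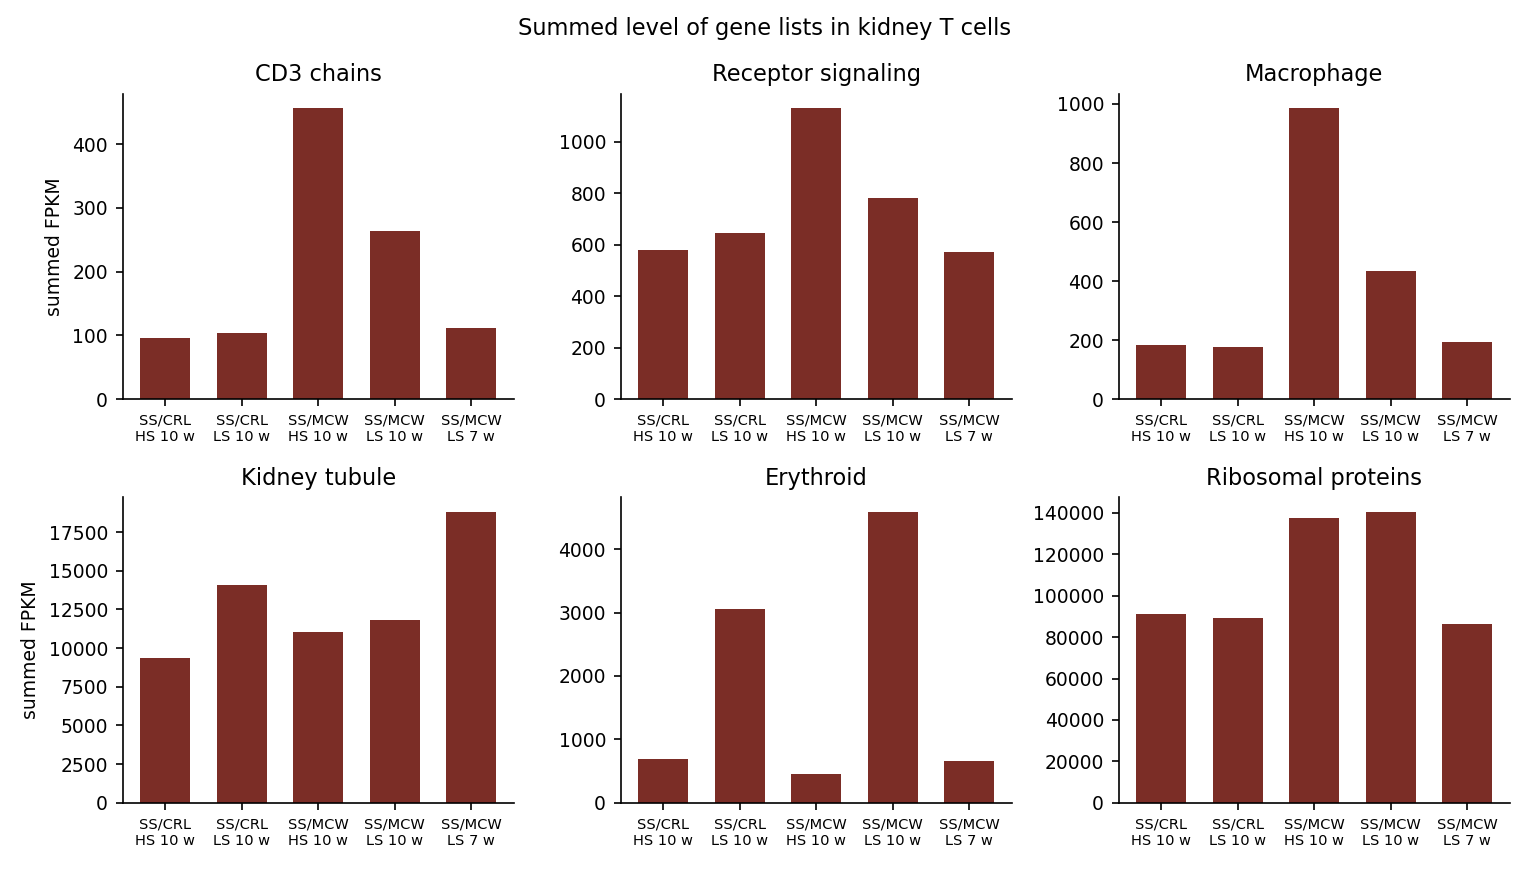
Summed FPKM of 6 gene lists in kidney T cells by group. CD3 chains, receptor signaling and macrophage genes peak in SS/MCW rats on HS, at 456, 1131 and 986 FPKM, ribosomal protein genes are high in both SS/MCW groups at 10 weeks and red cell genes peak in SS/MCW rats on LS at 10 weeks at 4594 FPKM.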

How the data were processed

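RNA of circulating and kidney T cells was extracted with TRIzol and made into libraries with a TruSeq RNA kit, per the labels' protocols. Per the submitters' processing notes, cutadapt, Trim Galore 0.2.5, TopHat, TopHat2 2.1.1, Cufflinks 2.2.1 and Cuffdiff were used, with build rn5. The deposited files are 15 Cuffdiff tables, 5 comparisons within each tissue and 5 between tissues. Expression is FPKM, 1 value per group, computed by the authors per the file headers. The test statistic is a score deposited by the authors. The p-value and q-value are the authors', per the file headers.

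Fold changes on the log2 scale come from the deposited FPKM of kidney over circulating cells, SS/CRL over SS/MCW rats, HS over LS and 10 over 7 weeks, which turned 1 table round. They matched the log2 fold change column of the deposited tables within 0.01 where that could be read as a number. Calls are gene models with status OK and an authors' q under 0.05. Libraries have no values of their own, so depth and its precision are unknown and no SD was possible. The tables do not show whether libraries differed in quality. The difference test was run on simulated data drawn with the same standard errors, so that run could not show whether these are right.

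The members, the lists and the motifs were chosen with earlier results of these data known. Genes named are the chains, the 3 gene models most like each over 10 groups (those over the 5 kidney groups alone are not reported here, since levels of some differed less between groups than between tables), and up to 4 of the highest members or the few called members of a list. Cd2, Lat, Lcp2, Trac, TCRB, Tyrobp, Hcst and Ube4a were given values as partners or neighbors after these were seen. Protein sequences are not used here. Alternatives were q under 0.01, a minimum of 1 FPKM, a normal p with and without recentring, a pseudocount of 1 and, for differences, other standard errors and a minimum of 5 FPKM. Versions were scipy 1.17.1, numpy 2.4.6, pandas 2.3.3, matplotlib 3.10.9 and Python 3.11.15.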

Additional observations from a re-analysis of the deposited data

How the results depend on the processing

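A count of chains called was computed for 15 comparisons and 7 differences. At q under 0.01 it was 0 in place of 1 for kidney SS/CRL against SS/MCW on LS and 0 in place of 1 for kidney 10 against 7 weeks, both times through Cd3d. With a normal p of the test statistic, recentred or not, it was 0 in place of 1 in these 2 comparisons and 0 in place of 4 for kidney SS/CRL against SS/MCW on HS. The cause was not tested, but the deposited p is smaller than the statistic gives. The 20 calls of kidney against circulating cells were kept under each of these settings. A minimum of 1 FPKM and, for the differences, standard errors from the deposited p or a minimum of 5 FPKM changed no count of chains. Recentred, Cd247 in circulating SS/CRL against SS/MCW on LS changed sign, at 0.014 in place of -0.0015 on the log2 scale, in neither case called. The split between the chains in kidney SS/MCW rats on LS at 10 weeks rests on 1 group of 4 libraries, and whether 1 library carries it was not tested. Of the 24 genes found most like a chain over the 10 groups or the 5 kidney groups, 19 were found with a pseudocount of 0.1 and 16 with 5. No paired analysis was possible because the tables hold no value per library, and leaving out single libraries was not run for the same reason.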
